A study of Gallus gallus with 12 samples.

Results

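In microglia from the anterior hypothalamus of heat-conditioned chicks (Gallus gallus), 30 genes had a lower mean level after lipopolysaccharide (LPS) than after saline, while their mean level in chicks without conditioning was nearly the same after both injections. They were chosen by that pattern from the deposited counts. Levels in CPM (counts per library total, scaled to 1000000) were averaged over the 3 libraries of each group, for the 3999 of 11207 genes with 150 or more counts over the 12 libraries. A log2 ratio of LPS to saline, with 5 CPM added to each mean, was then at most -0.8 in conditioned chicks and between -0.3 and 0.3 in non-conditioned chicks. Those 2 ratios are called the LPS change after conditioning and the LPS change without conditioning below. Because they chose the genes, they are given as a description and no test is made of them or of their difference.

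Each library came from a FACS-sorted pool of microglia from 10 to 12 birds, taken on day 11 after hatching. The 4 groups of 3 libraries were saline without conditioning, LPS without conditioning, saline after conditioning and LPS after conditioning. Conditioned chicks had spent 24 h at 39°C from day 3, and all chicks, controls included, received an injection into the third ventricle on day 10, 24 h before the cells were taken. No group was left without an injection. The 3′ ends of mRNA were read by bulk MARS-seq. Library totals ran from 189180 to 963146 counts, and 3 counts correspond to 3.11 to 15.9 CPM depending on the library. The counts are of pools, so fewer cells of a type and less RNA per cell cannot be told apart. No symbol could be matched to the identifiers in the table, so the labelled cell type was not checked against its markers and most genes are given by their values. Replicate 3 of the saline non-conditioned group and replicate 1 of the LPS non-conditioned group stood apart from their groups in many of the 30 genes, and the counts that they touch are also given without them.

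Microglia are the resident macrophages of the brain. They sense LPS, a component of the bacterial outer membrane, through toll-like receptor signalling, and answer with changes in transcription that include both induced and repressed genes. A past exposure can leave macrophages in a state in which a later challenge gives a weaker or a stronger response, known as tolerance and priming. The anterior hypothalamus takes part in the control of body temperature and fever, and heat exposure in the first days after hatching is known to alter the later heat response of chicks. The comparison of LPS with saline in both conditioning states bears on whether early heat changes how these cells respond to a later immune challenge.

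**Figure D1:**
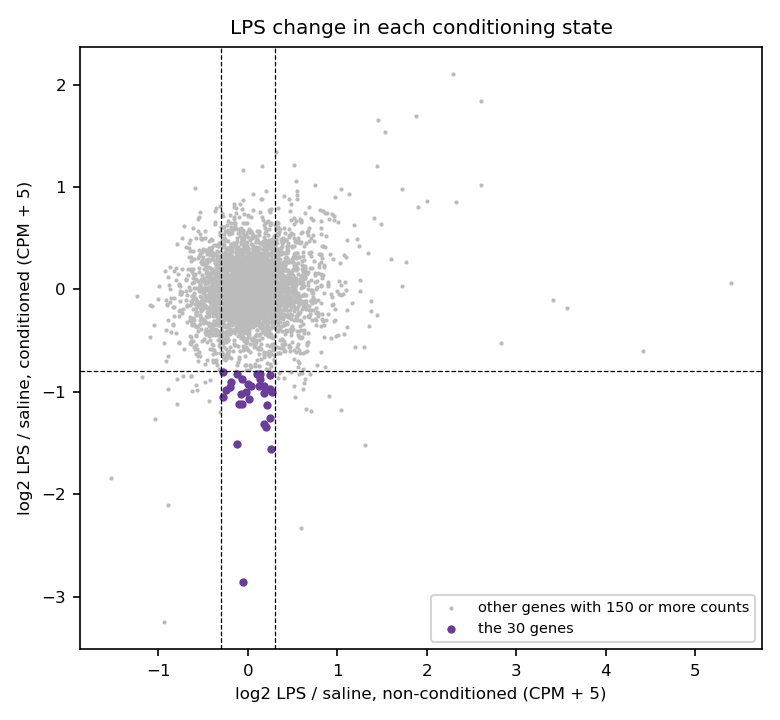
Each point is 1 gene, with the log2 ratio of LPS to saline in non-conditioned chicks on the x axis and in conditioned chicks on the y axis (group means of CPM plus 5). Dashed lines mark the limits at -0.8, -0.3 and 0.3, and the 30 chosen genes are purple.

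The LPS change after conditioning ran from -2.86 to -0.81 over the 30 genes, with a median of -0.99, and 14 genes were at -1 or below. The LPS change without conditioning ran from -0.28 to 0.27, with a median of 0.03. It was below 0 in 13 genes and above 0 in 17. Over all 3999 genes the medians of the 2 changes were -0.01 after conditioning and 0.01 without it. At the limits, the gene just inside had a change after conditioning of -0.81 and the gene just outside of -0.79. The change without conditioning ended at 0.27 inside and began at 0.34 outside on the upper side, and at -0.28 and -0.31 on the lower side. Within 0.1 of the limit after conditioning lay 7 genes inside and 19 outside.

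The same limits with their signs turned gave 10 genes with an LPS rise in conditioned chicks only. With the states exchanged they gave 22 genes with a fall in non-conditioned chicks only and 45 with a rise there. A fall of this size in conditioned chicks, whatever happened without conditioning, was seen in 66 genes, of which 6 also fell by as much without conditioning.

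Most of the 30 genes were of modest abundance. Mean CPM over the 12 libraries ran from 29.9 to 1042, with a median of 64.6, against 76.1 over all 3999 genes. By this mean, 12 genes were under 50 CPM, 10 between 50 and 100, 6 between 100 and 500, and 2 above 500. Summed counts per gene ran from 164 to 5450. In the LPS conditioned group every library held at least 4 counts of every gene. Counts of 3 or fewer occurred in 2 genes, both in saline non-conditioned replicate 3. All 30 genes passed the filter on low counts used for the test given further on.

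Added together, the 30 genes were at 2116, 2090 and 1990 CPM in the LPS conditioned libraries (replicates 1 to 3) and at 4155, 4504 and 4769 CPM in the saline conditioned libraries. They were at 4080, 11291 and 3214 CPM in the saline non-conditioned libraries and at 9798, 3777 and 4858 CPM in the LPS non-conditioned libraries. The 3 LPS conditioned libraries were the lowest of the 12 and close to each other. A single gene gave 5709 of the 11291 CPM and 4356 of the 9798 CPM in the 2 highest sums. Without it the sums were 2073, 2042 and 1955 CPM with LPS after conditioning, 4031, 4238 and 4154 CPM with saline after conditioning, 4036, 5582 and 3183 CPM with saline without conditioning, and 5442, 3477 and 3957 CPM with LPS without conditioning. The LPS conditioned libraries remained the lowest 3, and the 2 libraries with the highest sums remained the highest. Each summed gene was chosen for an LPS conditioned mean that was low relative to its saline conditioned mean. The order of the conditioned libraries therefore largely restates the choice. Their order against the other libraries was not a condition, but comes from the same means.

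**Figure D2:**
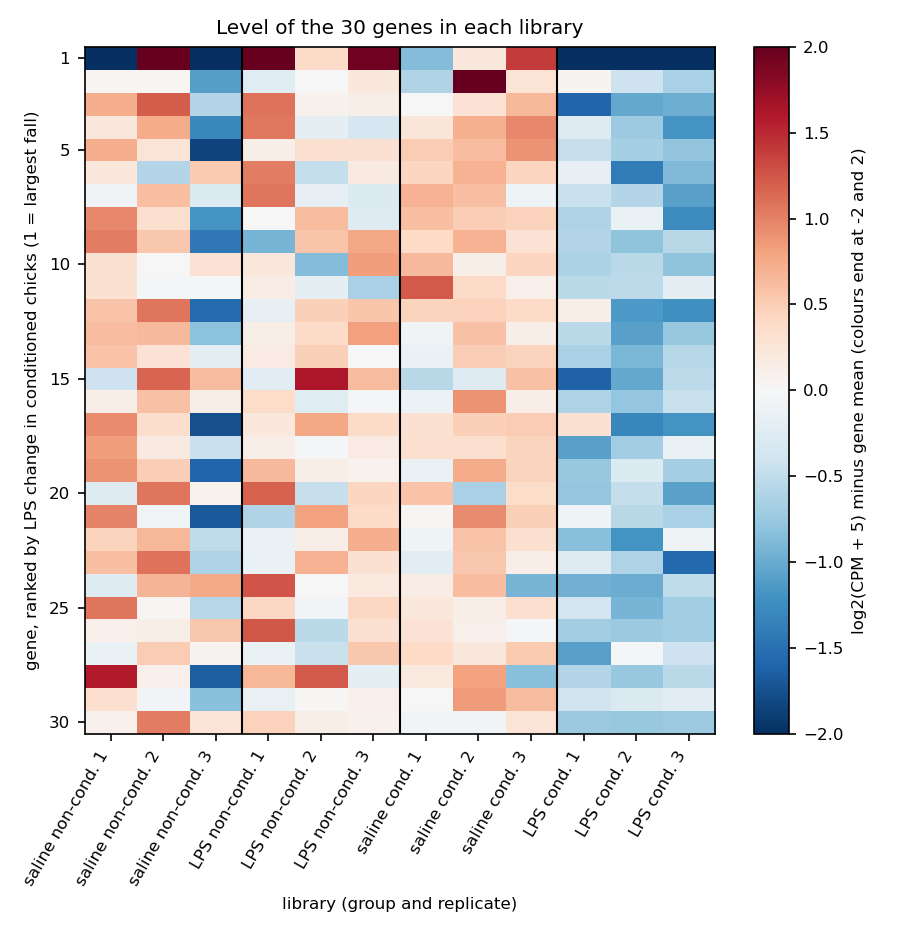
Each row is 1 of the 30 genes, ranked by its LPS change after conditioning, and each column is 1 library. Colour is log2(CPM + 5) minus the gene's mean over the 12 libraries, with the colours ending at -2 and 2. The LPS conditioned columns are mostly blue, and so is much of the column of saline non-conditioned replicate 3.

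In all 30 genes the LPS conditioned group had the lowest mean of the 4 groups, as it did in 25.9% of the 3999 genes. That it lay below the saline conditioned group follows from the choice. Its place below both groups without conditioning was not a condition of its own. Yet the choice favoured low LPS conditioned or high saline conditioned values and used the means of all 4 groups. The counts of separated groups that follow therefore describe the chosen genes, and nothing is read from their distance to the shares over all genes. The highest mean was in the saline conditioned group for 18 genes, in the LPS non-conditioned group for 7 and in the saline non-conditioned group for 5. All 3 LPS conditioned libraries lay below all 3 saline conditioned libraries in 25 of the 30 genes. The same held for 8.28% of the 3999 genes. LPS conditioned libraries lay below every LPS non-conditioned library in 18 genes, against 8.53% of all genes. They lay below all 9 other libraries in 6 genes, against 1.1%. In none of the 30 were LPS and saline libraries without conditioning free of overlap, and the narrow limits on that change favour overlap. Over all genes 6.33% had LPS lower and 5.9% had LPS higher there. How many of those genes lay within the limits was not computed.

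After saline the means of conditioned and non-conditioned chicks were close in the median gene. With 5 CPM added, the log2 ratio of the saline conditioned to the saline non-conditioned mean had a median of 0.08 over the 30 genes, within a range of -2.51 to 1.49. It lay within 0.3 of 0 in 16 genes, above that in 8 and below it in 6. In none of the 30 genes were the 2 saline groups free of overlap. Over all genes 4.23% had the conditioned libraries higher and 4.8% had them lower. After LPS the log2 ratio of conditioned to non-conditioned means had a median of -0.94, from -5.31 to -0.21, and was at -0.8 or below in 22 genes. Both ratios come from the same group means as the choice, which fixes their difference at -0.5 or less but not which of them carries it.

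Libraries stood apart in a way that bears on the choice. In saline non-conditioned replicate 3, 14 of the 30 genes were under 0.5 times the level of either other saline non-conditioned library, against 6.53% of the 3999 genes. It was the lowest of its group in 22 genes (42.0% of all genes) and the lowest of all 12 libraries in 11 (18.2%). In LPS non-conditioned replicate 1, 8 of the 30 genes were over 1.5 times the level of either other LPS non-conditioned library, against 6.43% of all genes. Yet this library was the highest of its group in 12 genes (33.5% of all genes) and the lowest in 11 (39.1%). Of the 30 genes, 2 showed both patterns and 10 showed neither. These thresholds were set after the values were seen, and the levels in both libraries entered the choice.

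The 14 genes that were low in saline non-conditioned replicate 3 had mean levels of 30.7 to 116 CPM. Their median level was 40.9 CPM, against 64.6 CPM over the 30 genes. The median LPS change without conditioning of these 14 was 0.09 with all libraries. Without that library it was -0.31, and it was below 0 in each of the 14, from -0.54 to -0.03. Leaving out a library picked for being low raises the saline mean, so a lower LPS change was fixed by the picking. Only its size is described. One of the 14 genes, with the rank 5 by its fall after conditioning, was at 60.2 and 42.3 CPM in the other saline non-conditioned libraries. It was at 5.88 CPM in saline non-conditioned replicate 3. With LPS and no conditioning the same gene was at 37.8, 43.9 and 43.2 CPM, after conditioning with saline at 50.9, 55.0 and 68.5 CPM, and with LPS after conditioning at 23.5, 19.8 and 17.7 CPM. Its LPS conditioned libraries lay below 8 of the other 9 libraries, the exception being that saline library.

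The 8 genes that were high in LPS non-conditioned replicate 1 had a median LPS change without conditioning of 0.17 with all libraries and -0.36 without that library, from -1.67 to -0.24. A lower value without that library was again fixed by the picking. In the 10 genes with neither pattern the median was -0.09, and it was -0.26 when saline non-conditioned replicate 3 was left out and -0.09 when LPS non-conditioned replicate 1 was. With both libraries left out, the median over the 30 genes was -0.27, 25 of 30 were below 0 and 15 were below -0.3, while 2 reached -0.8. Over all 3999 genes the median was then -0.04, and their shares below 0, -0.3 and -0.8 were not computed. Both libraries were picked after the values of these 30 genes were seen, which favours a lower LPS change without conditioning. The change after conditioning uses neither library and stayed at a median of -0.99.

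Leaving out these libraries changes neither the LPS conditioned nor the saline conditioned values that chose the genes. The LPS conditioned group had the lowest mean in 30 of 30 genes with either or both left out. It lay below all other libraries in 13 genes when saline non-conditioned replicate 3 was left out, in 6 when LPS non-conditioned replicate 1 was and in 18 when both were. Over all genes 2.35%, 1.35% and 2.88% did so, and the LPS conditioned values behind these counts were used in the choice. The saline conditioned mean was above the saline non-conditioned mean in 19 genes with all libraries and in 10 without saline non-conditioned replicate 3. Over all genes the shares were 49.7% and 45.0%. Leaving out a library picked for being low favours a smaller count.

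**Figure D3:**
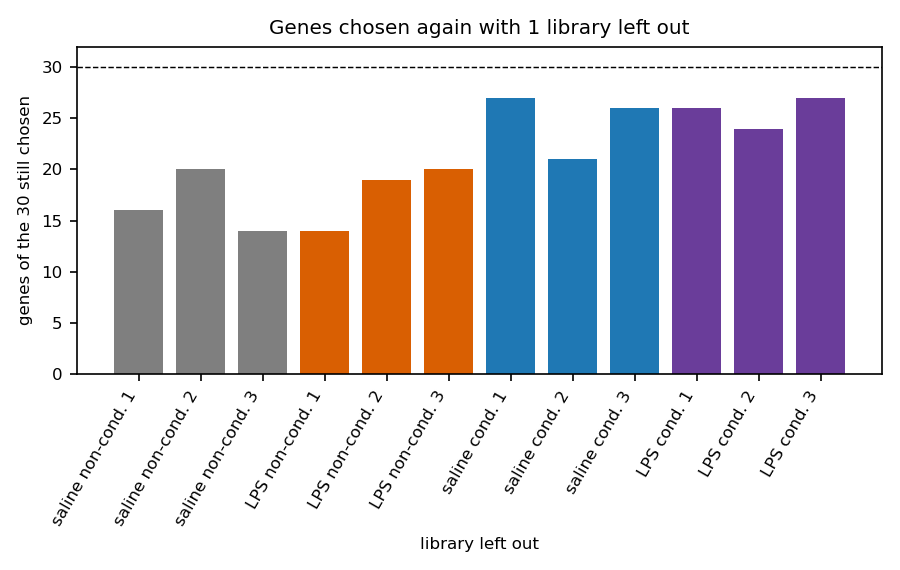
Bars give how many of the 30 genes still met the limits when 1 library was left out, with the library on the x axis, and colours mark the 4 groups. The dashed line is at 30, and the lowest bars, at 14 genes, are those of LPS non-conditioned replicate 1 and of replicate 3 of the saline non-conditioned group.

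Membership depended on single libraries for nearly all of the 30 genes. Left out one at a time, the 6 libraries without conditioning kept 14 to 20 of the 30, and the 6 conditioned libraries kept 21 to 27. Without saline non-conditioned replicate 3, 13 genes passed below the lower limit of -0.3 and 3 above the upper one. Without saline non-conditioned replicate 1 the balance was 3 below and 11 above. Among conditioned libraries, saline conditioned replicate 2 mattered most, with 9 genes whose change after conditioning then rose above -0.8. A single gene met the limits under all 12 omissions, 1 met them under 11, and the other 28 under 6 to 10.

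The gene that met the limits under all 12 omissions had the rank 14 and was picked out for this after its values were seen. It was at 333, 275 and 196 CPM with saline without conditioning, 252, 312 and 226 CPM with LPS without conditioning and 203, 318 and 307 CPM with saline after conditioning. With LPS after conditioning it was at 141, 117 and 148 CPM, a mean of 135 ± 16.4 against 276 ± 63.1 CPM with saline (SD, n = 3). The LPS conditioned libraries lay below the other 9, and the other 3 groups overlapped each other. Its LPS change after conditioning was -1.002, and between -1.18 and -0.89 over the omissions.

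The genes were also chosen anew on the libraries of 2 replicate numbers and read in the 4 libraries of the number left out. A count minimum of the same size per library was used. Without replicate 1 this chose 34 genes, without replicate 2 it chose 27, and without replicate 3 it chose 19, of which 7, 10 and 8 were among the 30. In the libraries left out, their median LPS change after conditioning was -0.29, -0.66 and -0.46, compared with -0.98, -0.93 and -1.01 in the libraries that chose them. Over all genes with the minimum count the medians in the same libraries were 0.07, -0.06 and -0.02. The change was below 0 in 23 of 34, 22 of 27 and 15 of 19 genes (67.6%, 81.5% and 78.9%, where 42.4%, 55.2% and 52.1% of all genes were below 0). The change without conditioning had medians of -0.05, -0.16 and 0.33 in the libraries left out. It lay between -0.3 and 0.3 in 17 of 34, 10 of 27 and 4 of 19 genes (50%, 37.04% and 21.1%), where 43.9%, 42.5% and 40.9% of all genes did. It was at -0.8 or below in 1, 8 and 1 of them, for which no share over all genes was computed. The share between -0.3 and 0.3 was above that of all genes in 1 of the 3 readings and below it in 2. Both limits were met again by 2, 5 and 2 genes, or 5.88%, 18.5% and 10.5%, against 0.859%, 2.55% and 0.957% of all genes. The median fall after conditioning was smaller there than in the libraries that made the choice. The shares over all genes were not matched to the chosen genes for spread, and a wider spread by itself puts more genes beyond a limit. With 1 library per group in each reading, no test of these values is given.

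The effect of conditioning averaged over both injections was no condition of the choice, but it is computed from the same 4 groups. This contrast, conditioned minus non-conditioned, is uncorrelated with both LPS changes only where the groups have equal spread. The spreads were not equal, with median coefficients of variation over all 3999 genes of 24.5% in the saline non-conditioned, 20.2% in the LPS non-conditioned, 18.01% in the saline conditioned and 15.7% in the LPS conditioned group. The averaged effect is therefore not fully independent of the choice, and the counts and medians over the 30 genes are descriptions. In one edgeR quasi-likelihood fit of all 12 libraries and 5170 genes, 0 of the 30 genes passed an adjusted p (Benjamini-Hochberg) under 0.05, and 1 gene in all, not among the 30, was called (0.0193%). The smallest adjusted p among the 30 was 0.221. At an unadjusted p under 0.05 there were 12 of the 30 genes, all lower in conditioned chicks, against 4.66% of all genes in either direction and 2.92% lower. DESeq2 called 1 of the 30 and 2 of the 11207 genes in the table (0.0178%). The edgeR fit with a block for replicate number called 1 of the 30, a different gene, and 2 of the 5170 genes.

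The averaged difference was below 0 in 27 of the 30 genes, compared with 52.3% of all tested genes. Its median was -0.41 on the log2 scale, within a range of -3.96 to 0.56, against a median of -0.01 over all genes, whose middle 50% lay between -0.15 and 0.14. It was below -0.3 in 21 of the 30, for which no share over all genes was computed. From the group means, the median log2 ratio of conditioned to non-conditioned was 0.08 after saline and -0.94 after LPS. The averaged difference includes the LPS conditioned and saline conditioned levels used in the choice, and is not read as an effect after both injections. Without saline non-conditioned replicate 3, the saline conditioned mean was the higher saline mean in 10 genes, against 19 with all libraries. Over all genes the shares were 45.0% and 49.7%. The median averaged difference of the 30 genes was -0.59 without that library. Leaving out a library picked for being low raises the non-conditioned mean, so the picking favoured a lower averaged difference. How much of the averaged difference came from each injection was not tested. With both libraries that stood apart left out, the median averaged difference was -0.57 and 26 genes were below 0. In that setting 18 had an unadjusted p under 0.05, all lower, and 1 was called. Leaving out saline non-conditioned replicate 3 favoured lower values here too. Over all 5393 genes tested in that setting, 8.27% had an unadjusted p under 0.05, 4.67% lower, and 7 were called (0.13%). In leaving out any 1 library the median stayed between -0.59 and -0.30.

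**Figure D4:**
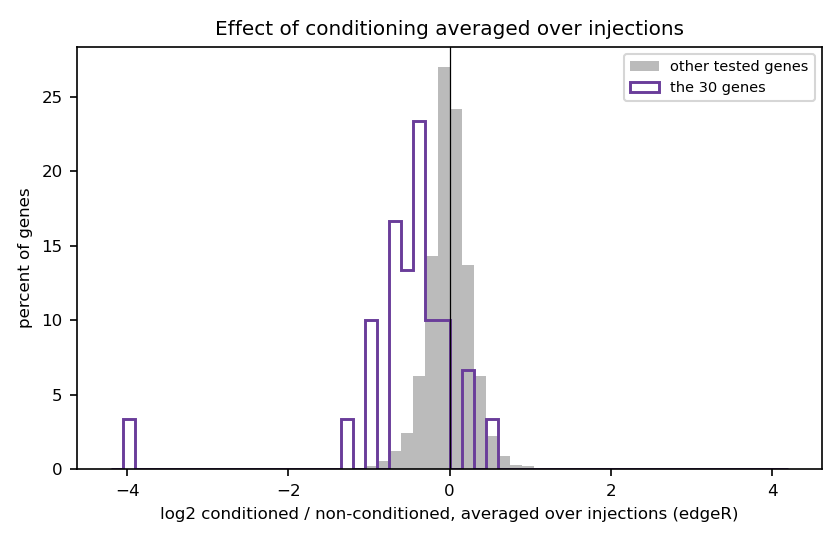
The x axis is the log2 difference between conditioned and non-conditioned chicks averaged over both injections (edgeR), and the y axis is the percent of genes per bin. The 30 genes are outlined in purple over the other tested genes in grey, and 27 of the 30 lie below 0.

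The gene with the smallest adjusted p ranked last of the 30 by its LPS change after conditioning, at -0.81. Its LPS change without conditioning was -0.28, the lowest of the 30. The difference of the 2 changes, -0.52, was the smallest in size of the 30. Both changes lay close to the limits, and the gene met the limits in 7 of 12 omissions. It was at 348, 347 and 436 CPM with saline after conditioning and at 213, 210 and 217 CPM with LPS after conditioning. Without conditioning it was at 384, 735 and 437 CPM with saline and at 497, 396 and 382 CPM with LPS. The LPS conditioned libraries lay below all others and within a narrow range. The averaged effect of conditioning was -0.71 ± 0.15 (SE, log2), which did not pass over all genes (edgeR adjusted p = 0.221). This gene was the one called by DESeq2 (adjusted p = 0.0415).

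Identifiers are given for 4 genes, chosen by a rule on their values. The first pair had the lowest LPS change after conditioning among genes whose LPS conditioned and saline conditioned libraries did not overlap. The second pair had the highest ratio of saline conditioned to saline non-conditioned means among the rest. What these genes encode is not annotated in the sources used here.

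ENSGALG00000032940.2 had the lowest LPS change after conditioning, at -2.86. It was at 124, 267 and 615 CPM with saline after conditioning and at 42.7, 47.5 and 35.4 CPM with LPS after conditioning, from 73, 63 and 592 counts and 20, 24 and 16 counts. Without conditioning it was at 44.4, 5709 and 31.4 CPM with saline and at 4356, 301 and 901 CPM with LPS. The conditioned groups did not overlap, and the groups without conditioning did. Of the saline non-conditioned libraries only replicate 2 was high, and the other 2 were at the level of the LPS conditioned libraries. The LPS change without conditioning was -0.06 with all libraries. It was 5.44 without saline non-conditioned replicate 2, and leaving out LPS non-conditioned replicate 1 gave -1.67. In each of these groups 1 library held most of the sum. The averaged effect of conditioning was -3.96 ± 0.87 (SE, log2, edgeR adjusted p = 0.262), and -1.13 without saline non-conditioned replicate 2. It was called in 4 of 17 alternatives, over a range of adjusted p from 3.34e-130 with no filter on low counts to 0.998.

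ENSGALG00000032398.1 was at 61.0, 76.2 and 99.7 CPM with saline after conditioning and at 17.1, 27.7 and 28.8 CPM with LPS after conditioning. These are means of 79.0 ± 19.5 and 24.5 ± 6.47 CPM (SD, n = 3) and an LPS change of -1.51. Without conditioning it was at 105, 148 and 39.2 CPM with saline and at 135, 65.0 and 66.5 CPM with LPS, a change of -0.12. The LPS conditioned libraries lay below all 9 others, and the other 3 groups overlapped. It was both low in saline non-conditioned replicate 3 and high in LPS non-conditioned replicate 1, and without these libraries in turn its LPS change without conditioning was -0.48 and -0.53. It met the limits in 10 of 12 omissions, with an LPS change after conditioning of -1.65 to -1.32. The averaged effect of conditioning was -0.96 ± 0.27 (SE, log2, edgeR adjusted p = 0.713), and it was called in 1 of 17 alternatives, with no filter on low counts (edgeR adjusted p = 0.00967). As for ENSGALG00000032940.2, the call with no filter is not read as evidence of a difference.

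ENSGALG00000035906.2 had the highest ratio of saline conditioned to saline non-conditioned means, with a log2 value of 1.49. It was at 18.6, 182 and 38.4 CPM with saline after conditioning, from 11, 43 and 37 counts, and at 32.02, 21.8 and 17.7 CPM with LPS after conditioning. Without conditioning it was at 31.7, 31.7 and 11.8 CPM with saline and at 25.2, 30.9 and 36.6 CPM with LPS. All groups overlapped, and saline conditioned replicate 2 was the highest of the 12 libraries. Without that library the LPS change after conditioning went from -1.55 to -0.22. The averaged effect of conditioning was 0.56 ± 0.45 (SE, log2, edgeR adjusted p = 0.999), and it was called in 0 of 17 alternatives.

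ENSGALG00000037360.2 was at 49.2, 93.1 and 78.9 CPM with saline after conditioning and at 36.3, 39.6 and 42.1 CPM with LPS after conditioning, without overlap. Without conditioning it was at 63.4, 47.6 and 25.5 CPM with saline and at 44.1, 50.4 and 53.2 CPM with LPS. Here the saline conditioned group was the high one, at 73.7 ± 22.4 CPM, and the LPS conditioned group at 39.3 ± 2.90 CPM lay close below the saline non-conditioned group at 45.5 ± 19.05 and the LPS non-conditioned group at 49.2 ± 4.68 CPM (SD, n = 3). Its LPS change after conditioning was -0.83, and it was above the limit without saline conditioned replicate 2 (-0.64), saline conditioned replicate 3 (-0.78) or LPS conditioned replicate 1 (-0.78). The averaged effect of conditioning was 0.20 ± 0.22 (SE, log2, edgeR adjusted p = 0.999), and it was called in 0 of 17 alternatives.

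**Figure D5:**
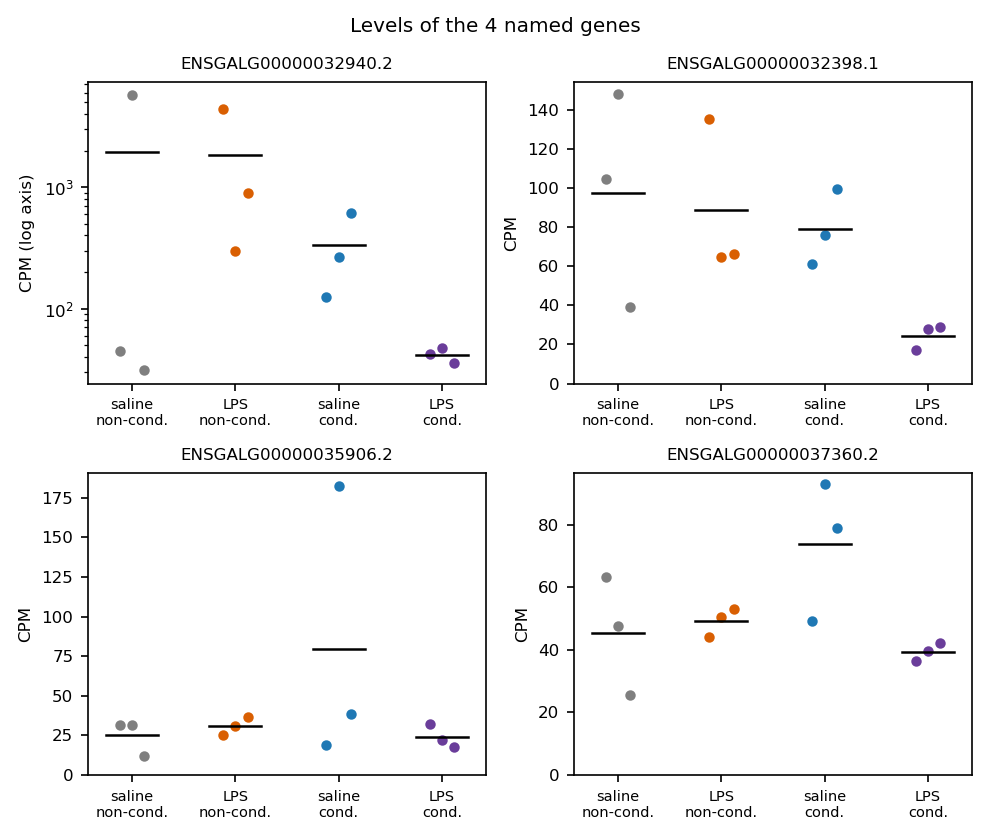
CPM of the 4 named genes in each library by group, with points for libraries and a line at the group mean. The first panel has a log axis and the others start at 0. The LPS conditioned libraries lie below the saline conditioned libraries in 3 panels and overlap them in the panel of ENSGALG00000035906.2.

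The 30 genes also differed in how closely replicates agreed. Their median coefficient of variation was 22.3% in the LPS conditioned group and 25.4% in the saline conditioned group, against 36.5% in the LPS non-conditioned and 50.6% in the saline non-conditioned group. In all 4 groups this was above the median of all 3999 genes. The order of the groups was the same as over all genes. The LPS change without conditioning was measured on the more variable groups.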

How the data were processed

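Bulk MARS-seq libraries of microglia (15 ng of RNA, single reads of 100 bp, about 25 M reads per sample, per the labels' protocols) were deposited as raw counts per gene for 11207 genes and 12 libraries, per the file headers. A normalized signal was deposited beside them, the count times 1 factor per library (1.13 to 6.25), used here only for an alternative scaling. Per the submitters' processing notes, the tools were cutadapt, STAR, HTSeq and DESeq2 and the build was galGal5, with no roles given. Their versions, the annotation, strandedness and any use of molecular identifiers are not stated there, so counts may be reads or molecules, and overlapping, antisense or near-identical genes are uncertain. Of the 11207 identifiers, 0 matched the reference table of 25635 chicken genes (GRCg7b), so the planned pathway and marker lists could not be applied. The members, lists and tests were chosen with earlier results of these data known.

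CPM used library totals. The test was edgeR 4.0.16 (R 4.3.3) on the counts, with filterByExpr (minimum count 10), TMM, 1 mean per group, glmQLFit and glmQLFTest, 2-sided, with Benjamini-Hochberg adjustment over 5170 genes and calls under 0.05. SE is the log2 difference divided by the square root of F. The fit was tested on simulated data of 5170 genes, 200 of them changed, of which 4965 genes passed the filter again. Among changed genes that passed, it recovered 66.3% of 2-fold and 98% of 4-fold changes. Of its 175 calls, 12 were false. Changes smaller than 2-fold were not simulated. DESeq2 1.42.0 was an alternative. Genes given by identifier, at most 4, had a mean of at least 20 CPM and followed the rule stated with them. Labels give separate pools as replicates, and p-values rest on a spread shared by all groups. The floor of 3 counts covers counting error only. Alternatives changed the amount added, the scaling, the count minimum, the filter, the tool and the libraries. Same-numbered libraries are not paired by the labels and deviated together (r above 0.1) in 3 of 18 pairs, so the main fit used no block. Yet 7 of 12 libraries correlated best with a library of their own number, so pairing is not settled. A fit with a block was an alternative.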

Additional observations from a re-analysis of the deposited data

How the results depend on the processing

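Choosing the genes gave 30. It gave 108 with no count minimum and 16 with a minimum of 300, both by construction of the limit. Leaving out a library gave 20 to 51 genes (51 without LPS conditioned replicate 1), and leaving out the libraries of a replicate number gave 19 to 34. Group medians in place of means chose 40 genes, of which 14 were among the 30. The other settings, with 1 or 10 CPM added, TMM, DESeq2 size factors or the authors' factors, chose 25 to 38 genes with 24 to 30 of the 30 among them. The authors' factors and the joint omission of both libraries that stood apart were tried after the data were seen.

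For conditioning averaged over injections, the 1 gene called became 2 with DESeq2, 37 with no filter on low counts and 7 with both libraries left out, and 0 to 6 with 1 library left out. The 0 called of the 30 became 1, 7 and 1, and 0 to 2. DESeq2 was given all 11207 genes, of which at most the 10867 with any count could be tested. The fits with no filter and with both libraries left out tested 10867 and 5393 genes. Those with 1 library left out tested 5383 to 5472, against 5170 in the main fit. With the replicate block 2 genes were called, of which 1 was among the 30. Same-numbered libraries were not paired by the labels, their deviations correlated at -0.12 to 0.16, and 7 of 12 libraries correlated best with a library of their own number. The cause of these moves was not tested. The median of the 30 stayed below 0 in each setting. Of the values of the 4 named genes, 63 stayed on their side of 0 and of the threshold and 5 gained a call. With 3 pools per group and libraries as small as 189180 counts, a gene at 30 CPM rests on few counts, which limits these values.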
